A study of Arabidopsis thaliana with 8 samples.

Results

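The 45 genes described here act in shoot branching, in auxin synthesis, transport and response, and in the shoot meristem of Arabidopsis thaliana. They were chosen by name and function and not by a methylation value, but with earlier results of these data known. All 45 were found by locus identifier among 27444 protein-coding nuclear genes. The measurement was bisulfite sequencing, in which unmethylated cytosines are read as thymines and methylated cytosines are read as cytosines. For each of 6 selected populations there is a list of cytosines whose methylation differed from that of the ancestral pool of the same line, here called differentially methylated cytosines (DMCs).

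The plants were 2 recombinant inbred lines, CVL39 and CVL125, each a mosaic of the accessions Ler and Cvi. Part of chromosome 2 was not fixed in CVL125, where both parental alleles were present, and which of the 12 genes on that chromosome lie in it was not analysed here. Each line had 1 ancestral pool (D0), descended from the founder population before selection. It also had 3 selected pools from the replicate landscapes 1, 5 and 6 (D1, D5 and D6), which had passed through 5 generations of selection. In the study, selection was for seed dispersal to new sites in a simulated fragmented habitat, and both lines were present in each landscape. The selected plants were then grown for 2 generations without selection. According to the paper, ancestral and selected offspring were grown together in a controlled environment. Each of the 8 samples was a pool of 4 plants, harvested at 25 days as whole above-ground tissue, so that a change in a few meristem cells and a change in all leaf cells could not be told apart. No gene expression was measured in these samples, so tissue markers could not be checked.

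All 3 lists of a line rest on the same ancestral pool, and with 1 such pool per line a difference between the lines and a difference between their ancestral pools cannot be told apart. Recurrence of a cytosine among the 3 lists of a line is therefore not independent evidence, since the same ancestral reads enter each comparison. The lists hold unadjusted p-values of at most 0.05 and give no reads, methylation level or direction, so nothing below says whether methylation rose or fell. The paper describes its SOLiD bisulfite data as a pilot of low coverage, and the depth behind each cytosine is not given. The lists held between 7297 and 14074 nuclear DMCs on a cytosine, with the lowest number in CVL125 from landscape 6. Where a gene has no DMC, it is not known whether its cytosines were covered well enough to be tested.

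Branch number is set by whether axillary meristems form in the leaf axils and whether the resulting buds grow out. Strigolactones repress outgrowth: the receptor D14 and the F-box protein MAX2 mark the repressor proteins SMXL6, SMXL7 and SMXL8 for degradation, and the transcription factor BRC1 holds buds dormant. Auxin made in young leaves flows down the stem through exporters and keeps lower buds inactive. WUS and the KNOX genes maintain the stem cells of the shoot tip, and CLV3 restricts them. DNA methylation of plants lies in the CG, CHG and CHH contexts (H is A, C or T), and the coding part of many moderately expressed genes carries CG methylation only, away from the gene ends.

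The sequences that carry the main positions are shown next, 5′ to 3′ on the strand given, from the TAIR10 assembly, with the cytosines listed on that strand in capitals. In SMXL6 the capitals mark 2 adjoining CG sites, in which both cytosines of each site, on both strands, were listed. The SMXL6, BIG, ARF19 and ABCB19 windows lie in coding sequence.
SMXL6, chr1:2209570-2209609, minus strand: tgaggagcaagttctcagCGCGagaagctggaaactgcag
BIG, chr3:443687-443727, minus strand: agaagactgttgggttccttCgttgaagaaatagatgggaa
ARF19, chr1:6631274-6631314, plus strand: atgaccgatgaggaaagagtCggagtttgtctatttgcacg
ABCB19, chr3:10873350-10873390, plus strand: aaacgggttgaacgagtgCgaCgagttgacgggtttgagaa

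The next 4 windows lie in 5′ untranslated regions (UTRs) and show listed CHH cytosines in or beside runs of alternating C and T.
TIR1, chr3:23276358-23276384, minus strand: ttctCttCccactCtctCtCtCtctct
YUC4, chr5:3613376-3613402, minus strand: ttcttactctctctCtctctCtttcgc
MAX2, chr2:17756074-17756100, plus strand: acgtggctctctctctgCccaaCacaa
BRC1, chr3:6383312-6383338, plus strand: ctctctctctCtttttctctctctttc

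Over the 6 lists, 19 of the 45 genes (42.2%) held at least 1 DMC in the gene body, from the annotated start to the annotated end. Among all protein-coding genes the share was 37.6%. The genes are long (median 3460 bp, against 2080 bp for the other genes), and a longer gene has more cytosines, so each was also set beside all other genes whose length was within 10% of its own. Those like-length genes held a DMC in 54% of cases on average, which corresponds to 24.3 of 45 genes. The 45 genes held 69 distinct listed cytosines against 70.6 at the mean of their like-length genes, with a median of 0 per gene both here and among all other genes.

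Longer genes held a DMC more often. All 7 genes over 5000 bp held a DMC, as did 10 of the 28 between 2000 and 4000 bp and 0 of the 7 up to 2000 bp. Of other genes, 74.8% held one from 5000 to 6000 bp, 84.3% from 6000 to 8000 bp and 93.7% above 8000 bp. At the short end it was 12.1% up to 1000 bp and 22.4% from 1000 to 2000 bp. Between 4000 and 5000 bp, 2 of 3 genes held one, against 69.4% of other genes. Between 3 and 4 kb, 33.3% of 15 genes held a DMC against 58.7% of other genes of that length. From 2 to 3 kb the shares were 38.5% of 13 genes and 43.3%. The 26 genes with no gene-body DMC ranged from 820 to 4240 bp (median 2571) and held a median of 150 CG cytosines, and the 19 with a DMC ranged from 2394 to 17804 bp (median 3862) with a median of 202. Per kb, the genes without a DMC had the higher median, at 58.9 CG cytosines against 50.6.

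**Figure D1:**
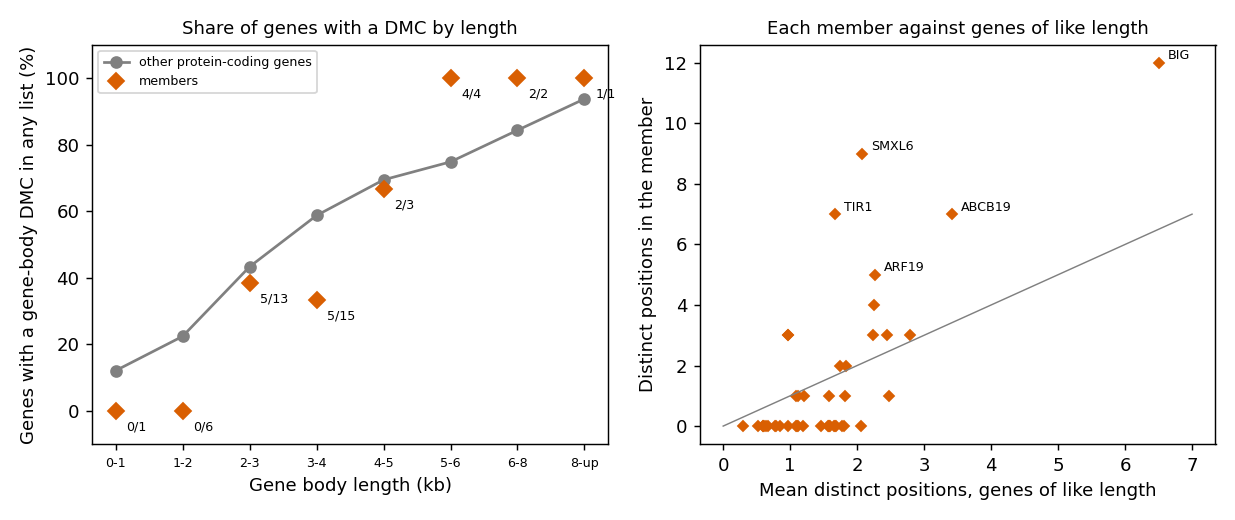
Left, the percentage of genes with a gene-body DMC in any of the 6 lists (y axis) by gene length in kb (x axis), for the 45 genes, with the number of genes written beside each point, and for the other protein-coding genes. Right, distinct listed cytosines in each of the 45 genes (y axis) against the mean of its like-length genes (x axis), where the diagonal marks equality and SMXL6 and TIR1 lie above it with 9 and 7 cytosines.

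By list, the number of the 45 genes with a DMC in CVL39 was 5 in landscape 1, 8 in landscape 5 and 10 in landscape 6, where 13%, 14.9% and 15.1% of all genes were called. In CVL125 it was 9, 13 and 8 in the same order, where 14.3%, 17% and 8.17% of all genes were called. In the CVL125 list from landscape 6, the shortest of the lists, 8 of the 45 genes (17.8%) stood against 8.17% of all genes. In the CVL39 list from landscape 1 the order was the opposite, with 5 of 45 (11.1%) against 13%. Over the lists of a line, 12 of the genes were called in CVL39 and 17 in CVL125, against 26.2% and 25% of all genes. Of the 19, 10 were listed in both lines, 2 (TAA1 and AXR1) in CVL39 alone and 7 in CVL125 alone. Of the 10332 genes with a DMC in the whole genome, 35.8% were listed in both lines, 33.7% in CVL39 alone and 30.5% in CVL125 alone. The shares in this paragraph were not matched for gene length, and the 45 genes are long.

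Counting every listing, the genes held 11, 13 and 17 DMCs in CVL39 and 20, 22 and 10 in CVL125, in the order of landscapes 1, 5 and 6. The means were 13.7 ± 3.06 for CVL39 and 17.3 ± 6.43 for CVL125 (SD, n = 3 populations each), and the ranges overlapped. The difference of 3.67 was within the spread of the CVL125 populations, and it was 9 without landscape 6, in which CVL125 had the lower count. Without cytosines in runs of alternating C and T it was 1. With only listings whose p-value was at most the largest of the list divided by 10, the direction turned to -2, from means of 6 in CVL39 and 4 in CVL125. Per 1000 CG cytosines of the gene bodies, the CG DMCs numbered 1.24 ± 0.333 in CVL39 and 1.46 ± 0.441 in CVL125, beside 1.33 ± 0.14 and 1.21 ± 0.544 in the other genes (SD, n = 3 populations each).

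**Figure D2:**
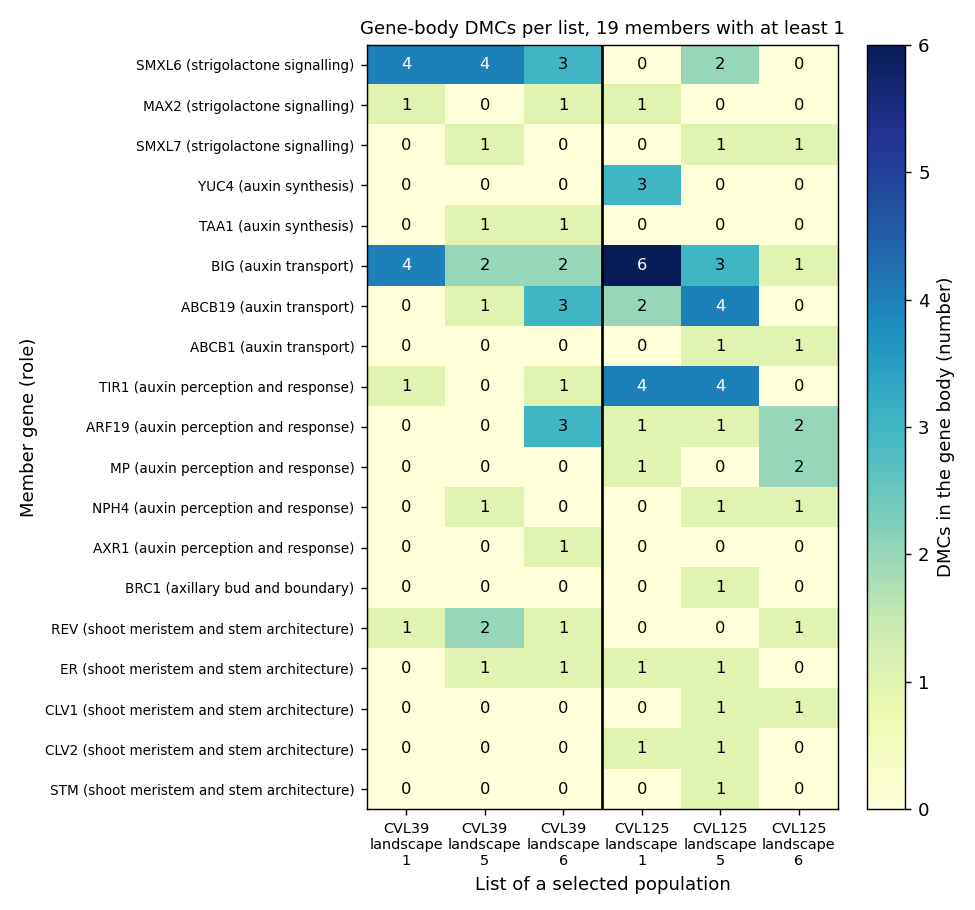
Number of gene-body DMCs in each of the 6 lists (columns; 3 populations of CVL39, then 3 of CVL125) for the 19 of 45 genes with at least 1 (rows, with their role). SMXL6 has 4, 4 and 3 in the CVL39 lists and 0, 2 and 0 in the CVL125 lists, and most other rows hold isolated counts of 1.

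In the strigolactone pathway, 3 of the 5 signalling genes held a gene-body DMC, beside 51.7% of their like-length genes, and 0 of the 4 synthesis genes did. A difference between these small groups was not tested. MAX3, MAX4, D27 and MAX1, which make the hormone from carotenoids, had no gene-body DMC, and 44.7% of their like-length genes had one. Of the 5 signalling genes, SMXL6, MAX2 and SMXL7 held 14 distinct listed cytosines, 10 of them in CVL39 and 4 in CVL125, and D14 and SMXL8 held none.

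SMXL6 (AT1G07200, chr1:2208477-2212718, minus strand) encodes a repressor of BRC1 that is degraded in the response to strigolactone. In CVL39 it held 4, 4 and 3 DMCs in landscapes 1, 5 and 6. The CVL125 lists gave 0, 2 and 0. Every CVL39 value lay above every CVL125 value, at 3.67 ± 0.577 against 0.667 ± 1.15 (SD, n = 3 populations each). These counts take the 2 strands of a CG site as separate cytosines. The 4 of CVL39 from landscape 1 were both strands of 2 adjoining CG sites. Counted by site, that list would hold 2, no more than CVL125 from landscape 5, and the lines would overlap. The two-sided exact permutation p was 0.1, the smallest that 3 against 3 populations can give, and 0.572 after Benjamini-Hochberg adjustment over the 4587 genes with at least 3 listings. Of the 12 genes tested, SMXL6 alone had lines that did not overlap with CVL39 higher, while 10.2% of all genes tested did so. In the other direction it was 0 of 12, against 7.3% of all genes. Its 9 distinct cytosines, with both strands of the 2 adjoining sites counted, compare with a mean of 2.07 in 1693 like-length genes, of which 2.3% had as many.

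All 9 SMXL6 positions were CG cytosines in coding sequence, between 53.9% and 73.8% of the way along the gene. The CGCG shown above was the only place among the 45 gene bodies where a cytosine recurred in all 3 lists of a line. Its minus-strand cytosine at position 2209589 had listed p-values of 0.000155, 0.000333 and 0.000333 in the CVL39 lists from landscapes 1, 5 and 6, and the one at 2209591 had 0.00699, 0.00966 and 0.00966. The plus-strand cytosines of the same sites were listed for landscape 1 alone, with p-values of 6.4e-07 at 2209588 and 5.76e-06 at 2209590, the first being the lowest among the 45 genes. Genes with such a recurring cytosine made up 1.83% of all genes in CVL39, where SMXL6 was the only member, and 1.24% in CVL125, where none of the 45 genes was. The CVL125 cytosines at 2209730 and 2209949, both from landscape 5, fell in the same coding region, and no SMXL6 cytosine was listed in both lines.

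MAX2 (AT2G42620, chr2:17756069-17758468, plus strand), the F-box protein through which strigolactones and the related karrikins act, had 1, 0 and 1 DMCs in CVL39 and 1, 0 and 0 in CVL125. The CVL39 cytosines were CHH positions in the 5′ UTR, 22 and 27 bp from the annotated start, and the CVL125 cytosine was a CG site in coding sequence. SMXL7, which acts redundantly with SMXL6, had 0, 1 and 0 in CVL39 and 0, 1 and 1 in CVL125, and its CVL125 listings were the same coding CG site.

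Among the 7 genes of bud formation and outgrowth, only BRC1 (AT3G18550, chr3:6383289-6385815, plus strand) held a DMC, and it was a single CHH cytosine in the CT run of its 5′ UTR, listed for CVL125 from landscape 5. LAS, CUC1, CUC2, CUC3 and RAX1, transcription factors needed to set up the leaf axil boundary and the axillary meristem, and BRC2, the paralog of BRC1, had none. Their like-length genes, BRC1 included in the role, had a DMC in 39.3% of cases on average.

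Auxin synthesis runs from tryptophan through the aminotransferase TAA1 to the YUC flavin monooxygenases. Of its 4 genes, TAA1 and YUC4 were listed and YUC1 and YUC6 were not, beside 48% for like-length genes. YUC4 (AT5G11320, chr5:3611247-3613640, minus strand) had 3 DMCs in CVL125 from landscape 1 and 0 in each of the other 5 lists. All 3 were CHH cytosines in the 5′ UTR, 222 to 258 bp from the annotated start, and 2 of them lay in the CT run shown above. TAA1 carried 1 coding CHH cytosine, listed in CVL39 for landscapes 5 and 6.

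Among the auxin transport genes, PIN3, PIN4 and PIN7, exporters that sit on one side of the cell and set the direction of flow, had no gene-body DMC, and PID, the kinase that directs PIN placement, also had none. The ABCB exporters ABCB1 and ABCB19 and the very large protein BIG, which is needed for normal auxin flow, together held 20 distinct cytosines, and these are the longest of the transport genes. Like-length genes had a DMC in 67.7% of cases on average, against 3 of the 8 transport genes.

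BIG (AT3G02260, chr3:430877-448680, minus strand) had the most, with 4, 2 and 2 DMCs in CVL39 and 6, 3 and 1 in CVL125. The ranges overlapped (exact permutation p = 0.8). The gene is 17804 bp long, and its 12 distinct cytosines compare with a mean of 6.5 in only 10 like-length genes, 1 of which had as many. The CG site at position 443707 was listed in 4 of the 6 lists, more than any other cytosine of the 45 genes. Its listed p-values were 0.0357 and 0.00824 in CVL39 from landscapes 1 and 6, and 0.021 and 0.00216 in CVL125 from landscapes 1 and 5. No other BIG cytosine was shared between the lines. Toward the end of the gene, between 92.6% and 95.2% of its length, 6 CG cytosines were listed, 1 of which, at 432005, was the only intronic position among the 69.

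ABCB19 (AT3G28860, chr3:10870005-10877578, minus strand), which carries auxin down the stem, had 0, 1 and 3 DMCs in CVL39 and 2, 4 and 0 in CVL125. The counts overlapped (exact permutation p = 0.8). All 7 distinct cytosines were coding CG sites, and none was listed in both lines. The CVL39 lists from landscapes 5 and 6 shared the site at 10873368, and the CVL125 lists from landscapes 1 and 5 shared those at 10870698 and 10874722. Of 296 like-length genes, 11.1% had as many. ABCB1, its close paralog, had 0, 0 and 0 in CVL39 and 0, 1 and 1 in CVL125, from 1 recurring coding CG site.

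**Figure D3:**
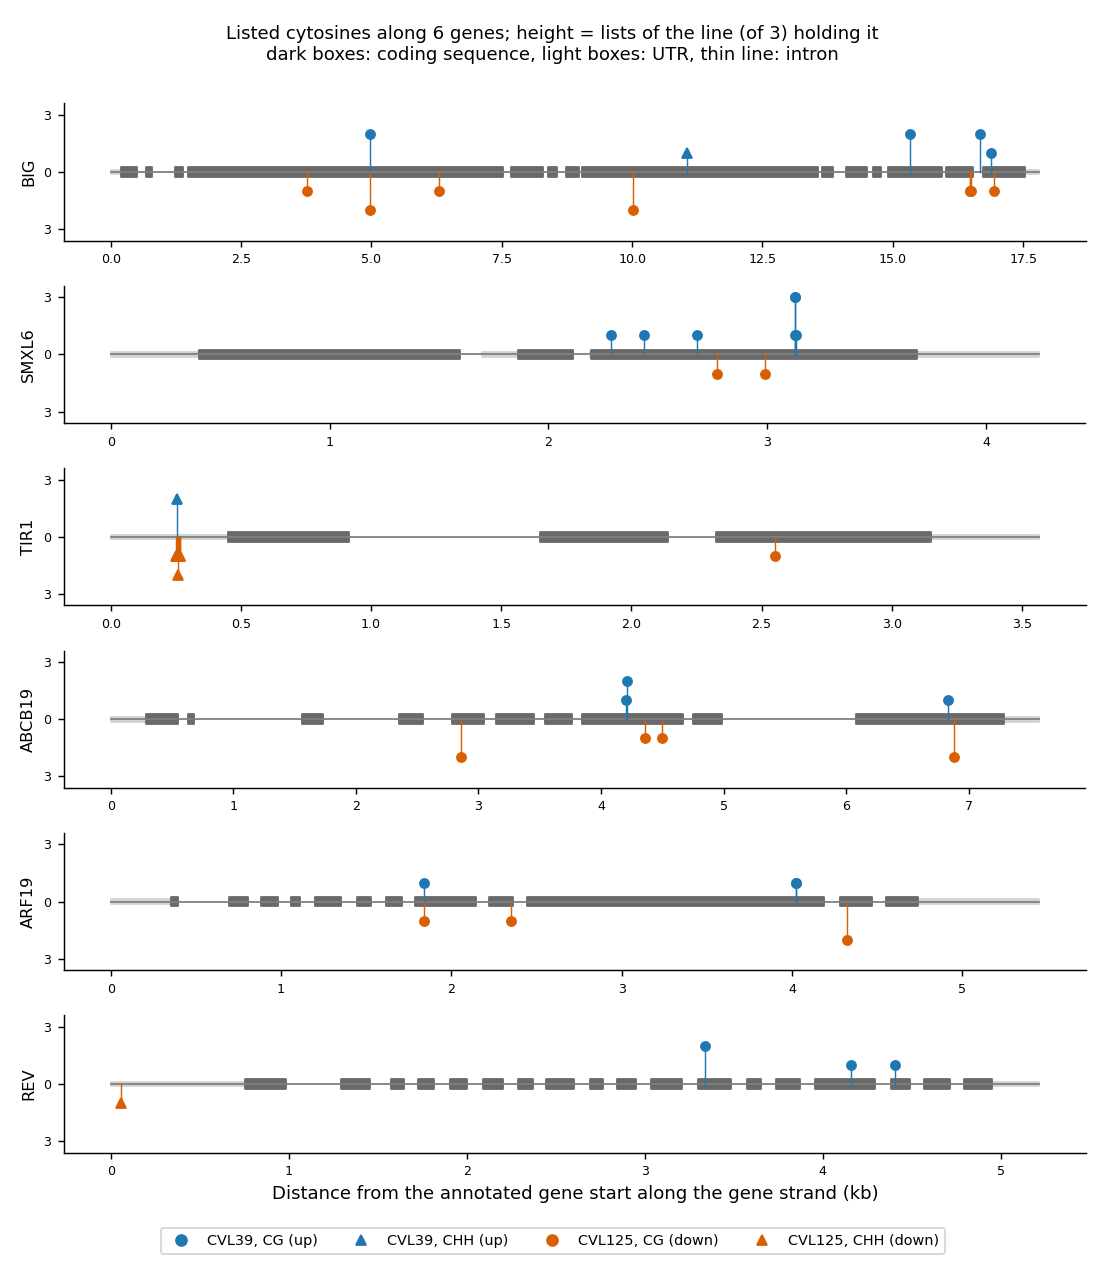
Listed cytosines along BIG, SMXL6, TIR1, ABCB19, ARF19 and REV, with the distance from the annotated gene start in kb on the x axis and, on the y axis, how many of the 3 lists of a line hold each cytosine (CVL39 upward, CVL125 downward). CG sites (circles) lie in the coding boxes, except 1 in an intron of BIG, and mostly beyond the midpoint of the gene, the CHH cytosines (triangles) of TIR1 and REV lie in the 5′ UTR, and the only markers at 3 lists are those of the SMXL6 CGCG in CVL39.

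Auxin perception and response had the largest share of listed genes, 5 of 7 against 62.5% for like-length genes, with 6 distinct cytosines in CVL39 and 15 in CVL125. The Aux/IAA repressors AXR2 and AXR3 had none. AXR1, part of the enzyme that activates the receptor's ubiquitin ligase complex, had a single coding CG site, listed for CVL39 from landscape 6.

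TIR1 (AT3G62980, chr3:23273065-23276630, minus strand), the F-box protein that binds auxin as a receptor, had 1, 0 and 1 DMCs in CVL39 and 4, 4 and 0 in CVL125. High counts came from landscapes 1 and 5 of CVL125, and the lines overlapped through the 0 of CVL125 from landscape 6 (exact permutation p = 0.4). The difference of 2 between the means (CVL125 minus CVL39) was 0.333 without cytosines in CT runs, and it turned to -0.333 with the stricter p-values. Of its 7 distinct cytosines, 6 were CHH positions packed between 250 and 267 bp from the annotated start in the 5′ UTR, 4 of them inside the CT run. The cytosine at 23276377, just outside the run, was listed in 3 lists, with p-values of 0.000317 and 0.00352 for CVL39 from landscapes 1 and 6 and 0.0117 for CVL125 from landscape 5. Only 1 TIR1 position, at 23274077, was a CG site, and 3.19% of 2473 like-length genes had as many distinct cytosines.

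The auxin response factors are the transcription factors that the pathway releases. ARF19 (AT1G19220, chr1:6627683-6633133, minus strand) had 0, 0 and 3 DMCs in CVL39 and 1, 1 and 2 in CVL125 (exact permutation p = 1). Its CG site at 6631294, shown above, was listed in both lines, with p-values of 0.014 for CVL39 from landscape 6 and 0.0286 for CVL125 from landscape 5. MP (AT1G19850, chr1:6886669-6891404, plus strand), which acts in embryo and flower formation, had 0, 0 and 0 in CVL39 and 1, 0 and 2 in CVL125. The lines overlapped at 0 (exact permutation p = 0.4). NPH4 (AT5G20730, chr5:7016445-7022179, minus strand), which acts with ARF19 in growth responses to light and gravity, had 0, 1 and 0 in CVL39 and 0, 1 and 1 in CVL125, each at a different coding CG site.

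Of the 10 meristem and stem architecture genes, REV, ER, CLV1, CLV2 and STM held 11 distinct cytosines, beside 54.5% for like-length genes. WUS, which maintains the stem cells, CLV3, the peptide that restricts them, the KNOX gene KNAT1 and the BELL genes RPL and PNF held none. REV (AT5G60690, chr5:24396981-24402195, plus strand), an HD-ZIP III transcription factor needed for axillary meristems, had 1, 2 and 1 DMCs in CVL39 and 0, 0 and 1 in CVL125. The higher counts were those of CVL39, but the ranges met at 1 (exact permutation p = 0.3, adjusted p = 0.839). Its 3 CVL39 positions were coding CG sites, that at 24400321 being shared by landscapes 5 and 6, whereas the CVL125 position was a CHH cytosine of the 5′ UTR.

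ER (AT2G26330, chr2:11208080-11214662, minus strand), a receptor kinase of stem and inflorescence growth, had 0, 1 and 1 in CVL39, both at the CG site 11209947, and 1, 1 and 0 in CVL125, at 2 sites 9 bp apart. The accession Ler carries a mutant copy of ER, and which copy each line carries was not analysed here. The receptor gene CLV1 (AT1G75820, chr1:28463344-28466971, minus strand) had 0, 0 and 0 in CVL39 and 0, 1 and 1 in CVL125, and its partner CLV2 had 0, 0 and 0 in CVL39 and 1, 1 and 0 in CVL125. STM, a KNOX gene that keeps meristem cells undifferentiated, had 1 CG site in CVL125 from landscape 5.

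Of the 69 distinct cytosines, 54 (78.3%) were CG, 0 were CHG and 15 (21.7%) were CHH, against 73.9% CG, 7.01% CHG and 19.1% CHH in other genes. The CG share of the listings in CVL39 was 72.7%, 92.3% and 82.4% in landscapes 1, 5 and 6. For CVL125 it was 70%, 77.3% and 90%. The means of 82.5% ± 9.79 and 79.1% ± 10.1 (SD, n = 3 populations each) differed by less than the spread. CG positions lay in coding sequence in 53 of 54 cases, and 44 of the 54 (81.5%) lay beyond the midpoint of the gene, against 68.7% of CG positions in other genes. In 8 CG cytosines (14.8%) the partner on the other strand was listed in the same list, 4 of them in SMXL6, 2 in ARF19 and 2 in BIG, compared with 4.64% elsewhere.

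**Figure D4:**
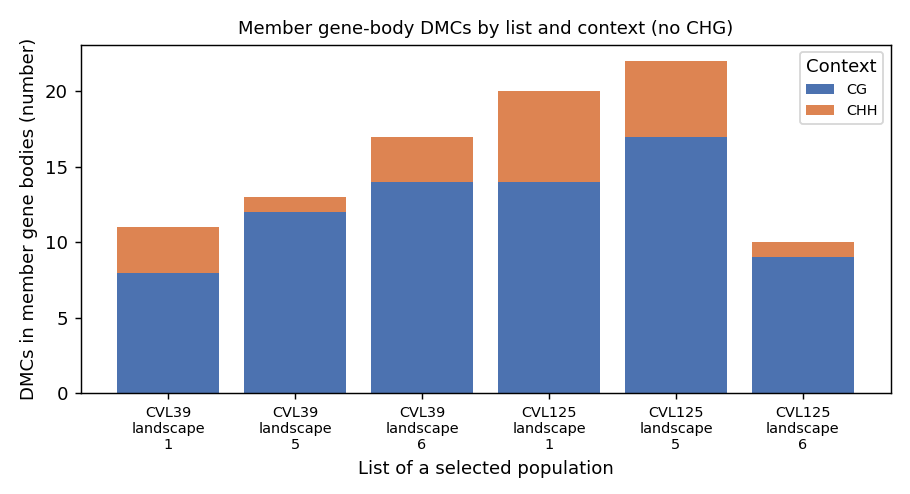
Gene-body DMCs of the 45 genes in each of the 6 lists (x axis, by line and landscape), as the number of DMCs (y axis, bars from 0) stacked by CG and CHH context. No CHG position was listed, the CG part ranges from 8 to 17 and the CHH part from 1 to 6.

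CHH cytosines had a different place. Of the 15, 13 were in the 5′ UTR of 5 genes (TIR1, YUC4, MAX2, BRC1 and REV) and 2 were in coding sequence (TAA1 and BIG). As a share of all 69 cytosines the 5′ UTR gave 18.8%, against 5.52% in other genes. The runs searched for were at least 4 CT dinucleotides in a row on either strand, read as AG on the other strand. In such a run lay 7 of the CHH cytosines, and 11 were within 10 bp of one. Such runs were present in the 5′ UTR of 17 of the 45 genes (37.8%), against 20.2% of the 23491 genes with an annotated 5′ UTR. All 5 genes with listed CHH cytosines in the 5′ UTR had a run there, which is 29.4% of the 17, compared with 4.39% of 4720 other genes with a run. Of the 28 genes without a run, 0 had one, compared with 0.748% of 18726 other genes without a run. The part of the repeats themselves in these listings was not tested.

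Recurrence was limited. Of the 69 cytosines, 50 (72.5%) were in 1 list, 15 in 2, 3 in 3 and 1 in 4, while 77% of those in other genes were in 1 list. A cytosine recurred in at least 2 of the 3 lists of a line for 7 of the 45 genes in CVL39, against 8.11% of all genes, and for 7 in CVL125, against 7.58%. Listed in both lines at the same cytosine were TIR1, ARF19 and BIG, 3 of the 45 genes against 2.11% of all genes. Neither these shares nor those for all 3 lists of a line were matched for gene length. The median listed p-value was 0.00821 over 93 listings, and 0.0175 over the gene-body listings of other genes.

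Within 1 kb on either side of the gene, 8 of the 45 genes held a DMC, against 23.2% of all genes. The lists held 5, 2 and 2 flank DMCs in CVL39 and the same numbers in CVL125, and the mean was 3 ± 1.73 in each line (SD, n = 3 populations each). Of the 14 distinct flank cytosines 3 were upstream and 11 downstream, 9 were CG, 3 CHG and 2 CHH, and 10 lay within another annotated gene. MAX1, PIN4, KNAT1 and PNF had flank cytosines without any in the gene body, and 22 genes had neither.

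MAX1 (AT2G26170, chr2:11140809-11143360, plus strand), a cytochrome P450 of strigolactone synthesis, had the only flank cytosine that recurred in all 3 lists of a line. It lay at 11143610, 250 bp past the end of MAX1 and within the coding sequence of the neighbouring gene AT2G26180, and is shown with its surroundings. Its partner on the minus strand, at 11143611, was listed in CVL39 from landscape 1 alone and is left in lower case.
MAX1 downstream, chr2:11143597-11143624, plus strand: gcttagcctttgtCgattcagtcaagct

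Its listed p-values in CVL39 were 0.00303, 0.00303 and 0.000155 for landscapes 1, 5 and 6, and no CVL125 list held it. PIN4 (AT2G01420, chr2:180033-183764, minus strand) alone among the 45 genes had upstream DMCs, at 544, 571 and 602 bp before the annotated start, within the noncoding RNA gene AT2G01422. They are shown because each is in another context, CHH, CG and CHG from left to right in the window below.
PIN4 upstream, chr2:184303-184371, minus strand: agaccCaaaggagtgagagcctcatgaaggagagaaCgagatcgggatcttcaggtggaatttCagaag

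The CG site was listed in CVL125 from landscapes 1 and 6, the CHG site in CVL125 from landscape 1 and the CHH site in CVL39 from landscape 5.

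A further 70 genes of the same pathways, from a list that does not overlap the 45, gave 29 with a gene-body DMC (41.4%), against 52.9% for their like-length genes. They held 84 distinct cytosines, against 102 at the mean of their like-length genes. ARF2, a repressing auxin response factor, had 2, 2 and 2 DMCs in CVL39 and 0, 0 and 0 in CVL125, and alone among the 17 of these genes tested had lines that did not overlap, where 10.2% of all genes tested did so with CVL39 higher. AFB3, a paralog of TIR1, had 0, 0 and 2 in CVL39 and 2, 3 and 0 in CVL125. A cytosine recurred in all 3 lists of CVL39 for ARF2 and ERL1, a relative of ER, and in all 3 lists of CVL125 for ARF6, where 1.83% and 1.24% of all genes had such a cytosine in CVL39 and CVL125.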

How the data were processed

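DNA of 8 pools was bisulfite sequenced on the SOLiD platform. According to the study's methods, SOCS placed the reads, with at most 4 mismatches each, on parental sequences derived from TAIR10 and known variants. The deposited p-values are the authors', unadjusted, 1 per listed cytosine and at most 0.05. The test and the coverage minimum behind them are not given in the sources used here, and neither is the depth per pool. Parental base differences were not analysed here.

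Positions were read as counted from 0, since 99.38% to 99.57% of a list's nuclear positions then matched a reference cytosine on their strand, compared with 12.32% to 14.24% counted from 1. Coordinates are printed counted from 1. Context, gene bodies, UTRs and neighbouring genes came from the RefSeq sequence and annotation of the same assembly. Positions not on a cytosine were left out. Like-length genes excluded the 45 genes.

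The replicate was the selected population. Lines were compared gene by gene with two-sided exact permutation tests on counts (3 against 3), not paired by landscape and adjusted over the 4587 genes with at least 3 listings. By design 0 genes could reach an unadjusted p of 0.05. Nothing says that the pools came from separate sowings beyond their landscape.

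The 45 genes, the 70 further pathway genes and the tests were chosen with earlier results of these data known. Genes named in full were the 12 with the most distinct gene-body positions, those with a position in all 3 lists of a line or in both lines, and, by name, those without a position, except that not every gene is reported by name here. SMXL7, TAA1, ABCB1, AXR1, BRC1, CLV2, STM, MAX1, PIN4, KNAT1, PNF, ARF2, AFB3, ARF6 and ERL1 were described after their values were seen. Alternatives were stricter p-values, other flank and length windows, exons only, list size, runs of CT left out, each landscape left out and a replicate block. Python 3.11.15, numpy 2.4.6 and matplotlib 3.10.9 were used. On simulated data, genes whose lines did not overlap were checked to have an exact permutation p of at most 0.1. Positions planted in known genes were checked to be counted there. How often the test finds a true difference, or a false one, is not reported here.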

Additional observations from a re-analysis of the deposited data

How the results depend on the processing

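With only listings whose p-value was at most the largest of the list divided by 10, the difference between lines (CVL125 minus CVL39) in DMCs of the 45 genes went from 3.67 to -2, the genes with a DMC from 19 to 11 (26.1% of like-length genes), the flank cytosines from 14 to 4, and the TIR1 difference from 2 to -0.333. The cause was not tested. With flanks of 500 bp and 2 kb there were 5 and 34 flank cytosines. Leaving out each landscape in turn gave a difference between lines of 1 to 9 (9 without landscape 6) and 7 to 13 flank cytosines (7 without landscape 1). It gave 4 to 7 genes with a cytosine in all remaining lists of a line, where only 2 lists are then needed. The share of all genes was not computed for these settings, so the 4 to 7 cannot be set beside it. Lines did not overlap for 1 to 4 genes, where 31.6% to 37.4% of all genes tested did so. Same-numbered populations of the 2 lines came from the same landscape, which the permutation tests did not use. Their deviations from the line mean correlated at 0.00133, 0.00871 and 0.0338. For populations with different numbers the correlations ran from -0.0263 to 0.0244. In the replicate block, differences were taken within each landscape, at 9, 9 and -7 in landscapes 1, 5 and 6. Their mean is 3.67 by arithmetic, so it could not differ from the main value. Of the 12 genes tested, 1 kept its sign in all 3 landscapes, SMXL6, where 21.2% of all genes tested did so. The SMXL6 difference ranged from -3.5 to -2 over the alternatives run, with an exact permutation p of 0.1 with 3 populations per line and 0.333, the smallest possible, with 2. None of these alternatives counted by CG site instead of by cytosine. Without the cytosines in CT runs the difference between lines was 1 (means of 13.7 in CVL39 and 14.7 in CVL125), the TIR1 difference was 0.333 and 18 genes held a DMC. Like-length genes then held one in 53.9% of cases on average, and all genes in 37.5%. Of the summary values under these alternatives, 28 stayed within their limits and 12 did not. The 28 include the difference between lines with the replicate block, which could not change. The limit was the SD for the difference between lines and for the CG share, and a fixed fold change for counts. A difference between lines of 1 was still within its limit. The unknown depth limits every count of 0.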
